A study of Danio rerio with 6 samples.

Results

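The 7 genes described here, rcn3, fam20cl, rtn1a, fkbp11, mcfd2, RRBP1 (1 of 2) and fam46c, were noted as high in the livers of male zebrafish exposed to estradiol. They were taken by symbol from 31953 gene IDs, with 1 ID for each symbol. They were chosen by their estradiol fold changes in the authors' deposited table, so the p-values printed for estradiol against control, from the authors' fit or a second one, describe where these genes stood and are no independent test of them. Their nonylphenol values come from other treated fish but were set against the same control libraries. Levels in those controls helped choose the genes, so the nonylphenol comparisons with control are not independent of the choice either.

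The libraries were made from the livers of adult male zebrafish (Danio rerio) in 3 groups of 2 libraries. Control fish had ethanol, the vehicle, in their water, E2 fish had 1000 nM 17β-estradiol, the main natural estrogen, and NP fish had 100 nM nonylphenol, an alkylphenol from surfactants that can bind estrogen receptors. Exposure lasted 3 weeks, and each group lived in a single tank of 80 L with 40 fish, so tank and treatment cannot be told apart. The concentrations of the 2 compounds differ, and no label tells whether 1 liver or several went into a library. No deletion, transgene or strain is given in the labels for any group.

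Proteins that leave a cell are made on ribosomes bound to the rough endoplasmic reticulum (ER), pass through its membrane, fold in its lumen and are carried in vesicles to the Golgi and the cell surface. The liver uses this route for most plasma proteins. In egg-laying vertebrates, estrogen makes the liver produce large amounts of the yolk precursor vitellogenin, which leaves the cell by the same route, and males make it too when they are given estrogen.

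The deposited values are the authors' own comparisons, and reads per library were recovered from the deposited means for all 7 genes. The libraries of a group are called deeper and shallower by size factor, the scaling the authors applied for depth, because they cannot be tied to a labelled sample. Relative to the shallower E2 library, the size factors were 5.92 for the deeper E2 library, 9.09 and 14.3 for the controls, and 7.83 and 8.07 for NP. Levels below are normalised reads, which are reads divided by the size factor. The libraries of the E2 group stood furthest apart by the median fold between libraries. Folds were taken over recovered genes with reads in both libraries of a group and a group mean from 50 normalised reads upward. The median fold between the E2 libraries was 3.50 (716 genes). It was 1.94 between the controls (837 genes) and 1.34 between the NP libraries (912 genes). Genes at 0 in 1 library have no fold and are left out, so these values understate the spread. All 21 gene IDs of the hepatocyte markers had reads in both deposited tables. Their median log2 fold change was -1.44 in E2 and 0.83 in NP, where the median over all tested genes was -0.22 and -0.03. The share of all tested genes that fell was not counted. Of the 21 IDs, 4 (fga, fgb, serpina1 and 1 ID named hp) fell in E2. That hp ID fell in NP as well, at -6.73 ± 1.17 in E2 and -7.11 ± 0.85 in NP (SE, log2, authors' deposited tables). The other ID named hp did not pass in either comparison, at -1.30 ± 1.24 and -0.23 ± 0.67 (SE, log2, authors' deposited tables). In the authors' deposited tables the vitellogenins, esr1 and nots, genes known to answer to estrogen, rose in 9 of 9 cases in E2. In NP the 8 of 8 tested rose, and esr1 had no adjusted p (1.52 ± 1.36, SE, log2, with 13 and 0 reads). Of all tested genes, 2.10% rose in E2 and 1.26% in NP.

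In E2, the 7 genes had control levels far below those of E2 and were all higher in both E2 libraries than in both controls. By the adjusted p of the authors' deposited table (under 0.05), 7 of 7 rose, where 2.10% of all tested genes did, and this share follows from how the genes were chosen. The E2 libraries lay above the controls in 7 of 7, against 7.13% of all genes with at least 10 reads in these libraries, for the same reason. Between the nearest libraries, the lowest E2 level was from 4.15 times (mcfd2) to 218 times (rcn3) the highest control level in the 6 genes with control reads, and fam46c had 0 control reads. In bulk tissue, more RNA per cell and more cells of a kind that makes it cannot be told apart, in these genes and in all others below.

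**Figure D1:**
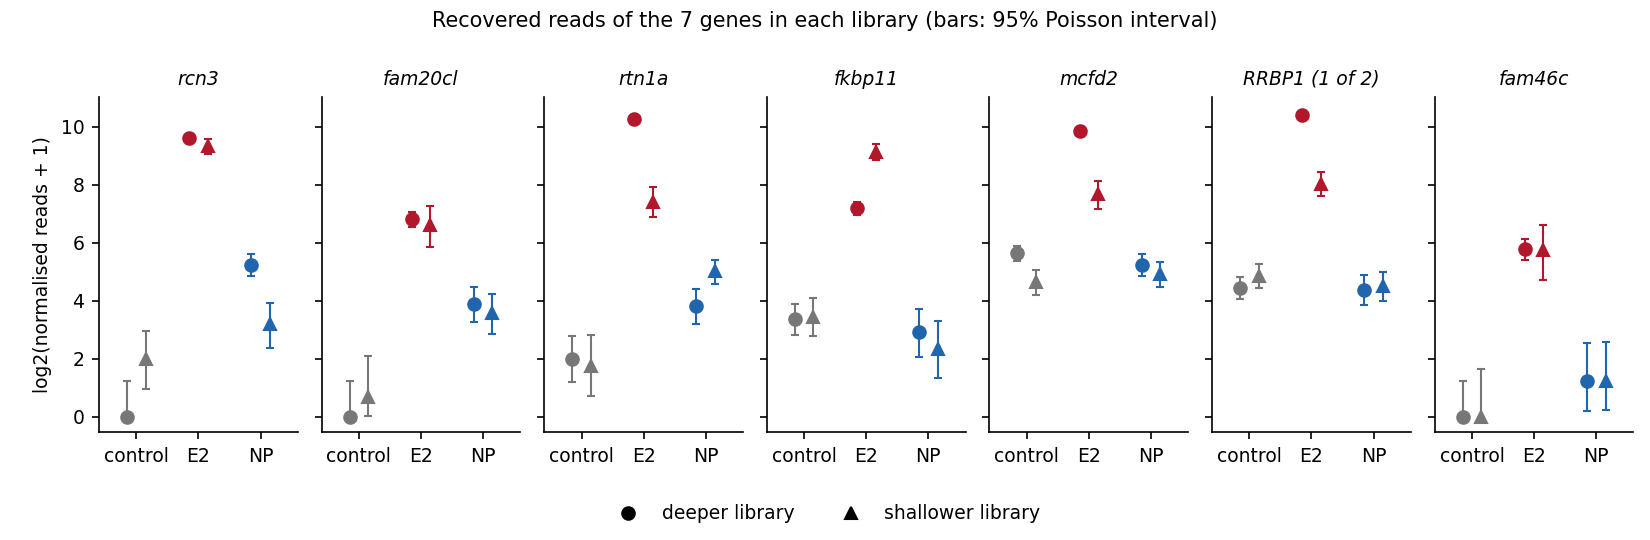
Normalised reads of each of the 7 genes in the 6 libraries, on a log2 scale after adding 1, by group (control, E2, NP). Circles are the deeper and triangles the shallower library of a group, and bars are 95% Poisson intervals that cover counting error only. E2 points lie above control points in all 7 panels, while NP points lie above both control points for rcn3, fam20cl, rtn1a and, with 2 reads each, fam46c.

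Of the soluble proteins of the pathway, rcn3 encodes reticulocalbin 3, a calcium-binding protein of the ER lumen with EF-hand motifs. Its level was 0 in the deeper control and 2.94 in the shallower (0 and 5 reads), 780 and 641 in E2, and 37.1 and 8.19 in NP, deeper library first throughout. It was nearly silent in control liver and high in both E2 libraries, with NP between them and no overlap between any pair of groups. The summed reads of E2 over those of control, each per unit of size factor, gave a ratio of 665, with a 95% counting interval from 284 to 2051 that is wide because control had 5 reads. The authors' deposited table gave rcn3 a log2 fold change of 7.92 ± 1.27 (SE) in E2, with adjusted p = 2.19e-07. All 5 control reads lay in 1 library, and the log2 ratio of mean levels (after adding 1), 8.17 with all 4 libraries, was 9.48 without the shallower control and 7.50 when the deeper was left out.

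Next, fam20cl belongs to the FAM20 family, whose member FAM20C in mammals is a Golgi kinase that phosphorylates secreted proteins. Its reads were the fewest but for those of fam46c: control had 0 and 1, E2 had 124 and 18, and NP had 21 and 16. As levels these were 112 and 96.2 in E2, 13.9 and 10.9 in NP, and 0 and 0.588 in control. The 3 groups formed separate steps, control lowest and E2 highest, and the libraries within E2 and within NP stood close together. With a single control read the E2 to control ratio of 480 has a counting interval from 84.8 to 19091. The authors' deposited table had fam20cl at 7.33 ± 1.35 (SE, log2) in E2, adjusted p = 1.28e-05.

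Among the membrane proteins of the ER, rtn1a encodes a reticulon, a member of the family that bends ER membranes into tubules. Its level in control liver was 2.99 and 2.35, its E2 level was 1223 and 171, and its NP level was 13.3 and 31.4. The E2 libraries differed more for this gene than for any other of the 7, yet both lay far above the controls, and the NP libraries again lay between. The counting ratio of E2 to control was 390, with an interval from 223 to 757. A log2 fold change of 7.22 ± 1.19 (SE), adjusted p = 5.63e-07, stood for rtn1a in the authors' deposited table of E2 against control. The log2 ratio of mean levels was 7.57 with all libraries, 5.55 without the deeper E2 library and 8.38 without the shallower.

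RRBP1 (1 of 2) encodes a homologue of the ribosome-binding protein p180, which in mammals holds ribosomes and mRNAs on the rough ER. Levels of 20.9 and 28.2 in control compared with 1377 and 262 in E2 and with 19.9 and 21.8 in NP. Only E2 stood apart, and NP and control overlapped. The ratio of E2 to control was 51.1 (counting interval 41.9 to 63.0), and the authors' deposited table gave 4.64 ± 1.11 (SE, log2) with adjusted p = 0.00243. Without the deeper E2 library the log2 ratio of mean levels was 3.36, and without the shallower it was 5.75.

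The folding enzyme and the cargo carrier also lay above both controls in E2 alone. The gene fkbp11 encodes a peptidyl-prolyl isomerase of the ER, an enzyme class that helps proteins fold. The controls had 9.35 and 10.0 normalised reads, E2 had 146 in its deeper and 561 in its shallower library, and NP had 6.63 and 4.10. It was the single gene of the 7 whose shallower E2 library was the higher, and both NP libraries lay below both controls. The E2 to control ratio was 21.5 (counting interval 15.5 to 30.5), and fkbp11 had 4.77 ± 1.09 (SE, log2), adjusted p = 0.00124, in the authors' deposited table. Its log2 ratio of mean levels, 5.05 with all libraries, was 3.79 without the shallower E2 library and 5.72 without the deeper.

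The carrier, mcfd2, encodes the small calcium-binding partner of the lectin LMAN1, and in humans the pair takes coagulation factors V and VIII out of the ER. Control levels of mcfd2 were 49.0 and 24.1, E2 levels 920 and 203, and NP levels 37.1 and 29.4. Its control levels were the highest relative to E2 of the 7, and NP lay within the range of the controls. The ratio of E2 to control was 20.8 (counting interval 17.6 to 24.5). For mcfd2 the authors' deposited table gave 3.62 ± 1.11 (SE, log2), adjusted p = 0.0274, the smallest fold and the largest adjusted p of the 7 in E2. Without the deeper E2 library the log2 ratio of mean levels went from 3.90 to 2.44, and without the shallower it was 4.62.

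The last gene, fam46c (tent5c in current naming), encodes a poly(A) polymerase that in mouse plasma cells lengthens the tails of mRNAs translated at the ER. It had 0 reads in both controls, 60 and 10 in E2, and 2 in each NP library. As levels these were 54.2 and 53.5 in E2 and 1.33 and 1.37 in NP. E2 stood alone, with its 2 libraries almost equal. Against a floor of 3 reads over the control group, E2 was 78.9-fold higher, a value that leaves out the counting error of the E2 reads. In the authors' deposited table fam46c had a log2 fold change of 7.66 ± 1.60 (SE) with adjusted p = 2.40e-04 in E2, a fitted value that is no bound since control was at 0.

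The E2 libraries matched closely for 3 of the genes. For fam46c, fam20cl and rcn3 the fold between the E2 libraries was 1.01, 1.16 and 1.22, below the lower quartile of 1.79 over the 716 genes named above. The fold was 3.83 for fkbp11, 4.53 for mcfd2, 5.26 for RRBP1 (1 of 2) and 7.15 for rtn1a, between the median of 3.50 and the upper quartile of 8.26. The closely matched genes were also the 3 with the fewest control reads. Their shallower-library reads were 10, 18 and 120, so the match is known only within counting error.

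**Figure D2:**
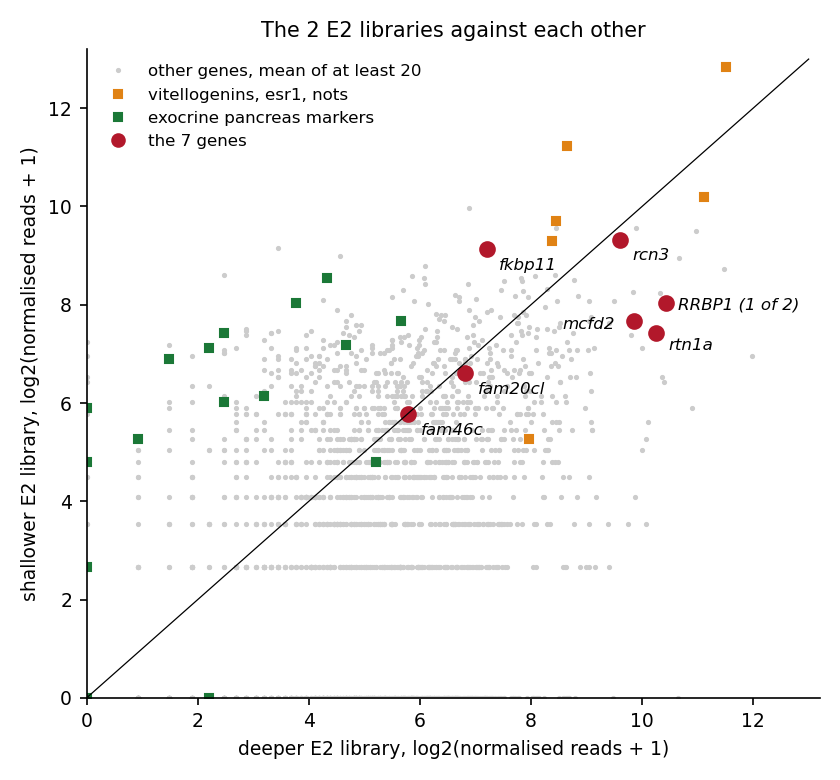
Normalised reads in the deeper E2 library (x) against the shallower (y), both as log2 after adding 1, with the line of equality. Red circles are the 7 genes, orange squares the recovered estrogen response genes, green squares the exocrine pancreas markers and grey points other genes with a mean of at least 20. Of the 7, 6 lie on or below the line, fkbp11 lies above it, and most pancreas markers lie above it too.

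Markers of other cells differed between the same 2 libraries. Summed normalised reads of 16 recovered exocrine pancreas markers came to 169 and 1700 in E2 and to 36.3 and 185 in control. The transcription factors ptf1a and bhlha15, which define acinar cells, were at 0 in all 6 libraries. This includes the NP libraries, where the same 16 markers summed to 7689 and 26952, so a 0 of these genes does not show that pancreas transcripts were absent. By the authors' test 2 of 12 tested pancreas markers rose in E2, where 2.10% of all tested genes did. These were prss59.1 (4.21 ± 1.27, SE, log2, authors' deposited table) and cpb1 (4.84 ± 1.53), and the median of the 12 was 3.45. For 6 recovered estrogen response genes these sums were 6471 and 12360 in E2 and 16.8 and 25.3 in control. Both sums were higher in the shallower E2 library, as fkbp11 was, and rtn1a, mcfd2 and RRBP1 (1 of 2) were higher in the deeper. These 6 recovered genes did not all follow their sum, of which vtg6 (2925 and 7302) was the largest part. Both vtg3 (2216 and 1171) and esr1 (248 and 37.4) were higher in the deeper library. The other 3 estrogen response genes, vtg2, vtg4 and vtg7, were not recovered and are not in these sums. Their means over the E2 and control libraries were 885, 3838 and 4072 in the authors' deposited table, against 2558 for vtg6. How the E2 libraries stood for these 3 genes is not known. Whether the makeup of the tissue or the depth had a part in the E2 values was not tested.

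Markers of B and plasma cells, in which mammalian FAM46C is abundant, had few reads. Of 11 marker IDs, 8 were at 0 in all libraries, cd79a, cd79b and pax5 among them. The other 3, ighv1-4, irf4b and prdm1a, summed to 1 read in E2, 5 in control and 15 in NP. As with ptf1a and bhlha15, a 0 of these markers does not show that transcripts of these cells were absent. Endocrine and neuroendocrine markers, listed because mammalian reticulon 1 is abundant in such cells, were at 0 for 6 of 16 IDs. The other 10 summed to 7 and 0 reads in E2, 9 and 12 in control, and 3 and 18 in NP. In E2 rtn1a had 1385 reads and fam46c 70. The part of these cells in the E2 values was not tested. Fibroblast markers, which mark cells that secrete matrix, summed over 10 IDs to 65.1 and 37.4 in E2, 20.2 and 34.7 in control and 97.4 and 146 in NP as normalised reads. The shallower E2 sum rests on 7 reads, so its order with the controls lies within counting error, while both NP sums lay above both controls. By the authors' test 0 of 1 tested fibroblast markers rose in E2 and 1 of 5 in NP, where 2.10% and 1.26% of all tested genes did. The part of these cells was not tested either. Of the macrophage markers, 2 of 6 tested fell in E2 and 3 of 8 in NP by the authors' test. The share of all tested genes that fell was not counted here. Over 12 IDs the sums were 987 and 555 in control and lower in E2 (360 and 90.9), while those in NP (392 and 605) overlapped control. Recovered intestinal markers set the shallower control apart, with a sum of 397 over 9 IDs against 2.24 in the deeper control. These sums were 1.81 and 5.35 in E2 and 3.31 and 2.73 in NP. They leave out apoa4b.1, which was not recovered. Its mean in the authors' deposited tables was 242 over the E2 and control libraries and 1488 over the NP and control libraries. It fell in E2 (-3.59 ± 1.18, SE, log2, adjusted p = 0.0431) and did not pass in NP (1.39 ± 0.68, adjusted p = 0.494). How the single libraries stood for apoa4b.1 is not known. The values of the 7 genes without the shallower control are among those in the plot of ratios with 1 library left out.

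In NP, 6 of the 7 genes had at least 10 reads over the NP and control libraries. Of these, 3 had both NP libraries above both controls (rcn3, fam20cl and rtn1a), 1 had both below (fkbp11), and 2 overlapped, while over all genes with that many reads 19.6% lay above and 23.4% below. The remaining gene, fam46c, had 4 reads in NP and 0 in control. By the authors' test, fam20cl alone rose among the 6 genes given an adjusted p, where 1.26% of all tested genes rose. The same controls had helped choose these genes, and control reads that are low by chance can raise NP ratios too. Control reads were 0 and 5 for rcn3 and 0 and 1 for fam20cl. The order of NP and control and the call are thus no independent test. Nothing in the labels says that the libraries are separate animals, so the p-values reflect how far these libraries vary, possibly for technical reasons only, and with 2 libraries against 2 an exact permutation test of a single gene cannot go below p = 0.333.

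For fam20cl the NP to control ratio was 54.4, with a counting interval from 9.18 to 2206 around its 37 NP reads and 1 control read. The authors' deposited table gave it a log2 fold change of 4.11 ± 1.19 (SE) in NP, adjusted p = 0.0247. Adjustment over every gene with a deposited p-value took this to 0.0657, so the call rests on which low genes are left out. The counting interval of the ratio for rcn3 ran from 8.16 to 63.6, and its value in the authors' deposited table was 3.31 ± 1.09 (SE, log2) with adjusted p = 0.0738. The deeper NP library carried most of the rcn3 reads: the log2 ratio of mean levels was 3.26 with all libraries, 1.90 without the deeper NP library, 3.95 without the shallower, 2.59 if the deeper control was left out and 4.56 if the shallower control was. The ratio for rtn1a was 8.09 (counting interval 4.33 to 16.4), and the authors' deposited table had it at 2.67 ± 0.94 (SE, log2), adjusted p = 0.116. Here the shallower NP library was the higher, and without it the log2 ratio of mean levels was 1.96, against 2.67 with all.

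The other 4 genes did not pass in NP. RRBP1 (1 of 2) had a ratio of 0.877 (counting interval 0.630 to 1.21) and mcfd2 one of 0.846 (0.654 to 1.09), so that a rise of either beyond 1.21-fold lay outside the counting error, which leaves out the spread between livers. In the authors' deposited table they stood at -0.21 ± 0.78 and -0.14 ± 0.76 (SE, log2), both with adjusted p = 0.999. The ratio for fkbp11 was 0.560 (counting interval 0.294 to 1.02) with 10 and 6 NP reads, and the authors' deposited table gave -0.73 ± 0.99 (SE, log2) with adjusted p = 0.999. For fam46c the 4 NP reads set no level apart from the 0 of control, and the authors' deposited table gave 1.76 ± 1.41 (SE, log2) with p = 0.211 and no adjusted p.

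**Figure D3:**
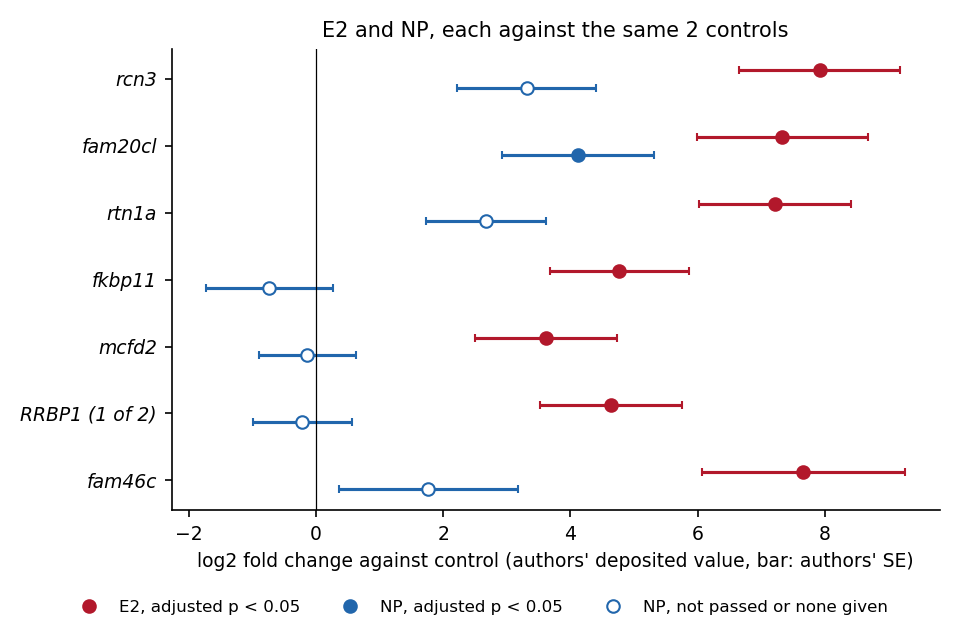
Log2 fold changes of the 7 genes against control in the authors' deposited tables, E2 in red and NP in blue, with bars of the authors' standard error; filled points had an adjusted p under 0.05. Values in E2 run from 3.62 to 7.92, and in NP fam20cl is the one filled point, with rcn3 and rtn1a the next highest. Both sets use the same 2 control libraries.

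Exocrine pancreas transcripts, products of a tissue built for secretion, were abundant in NP. The 16 recovered markers summed to 7689 and 26952 normalised reads in NP. By the authors' test 15 of 17 tested markers rose, where 1.26% of all tested genes did. Of the genes above control in NP, rtn1a was higher in the library with more pancreas transcripts, while rcn3 (37.1 and 8.19) and fam20cl (13.9 and 10.9) were higher in the other. The 6 recovered estrogen response genes, which leave out vtg2, vtg4 and vtg7, summed to 2564 and 823 in NP, in the order of rcn3 and fam20cl. Neither relation was tested, since it rests on 2 libraries. The levels of fkbp11, mcfd2 and RRBP1 (1 of 2) in NP lay within or below the range of control beside these pancreas transcripts.

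Set directly against NP, E2 was higher for all 7 genes. E2 libraries lay above NP libraries in 7 of 7, against 9.85% of all genes with at least 10 reads over the E2 and NP libraries. With reads summed per group, the ratio of E2 to NP was 8.82 for fam20cl (counting interval 6.11 to 13.03). It was 24.5 for mcfd2, 33.2 for rcn3, 38.4 for fkbp11, 40.2 for fam46c (15.03 to 152), 48.2 for rtn1a and 58.3 for RRBP1 (1 of 2). No order of the genes can be read from these ratios, which weight the deeper library most: as a ratio of mean levels fkbp11 had 66.0, RRBP1 (1 of 2) 39.3 and rtn1a 31.2. Without the deeper E2 library the log2 ratio of mean levels (after adding 1) went from 4.90 to 2.88 for rtn1a, from 4.04 to 2.58 for mcfd2 and from 5.23 to 3.59 for RRBP1 (1 of 2), beside 2.86 for fam20cl. For fkbp11 it went from 5.80 to 4.53 without the shallower E2 library, and for rcn3 from 4.91 to 6.27 without the deeper NP library and to 4.22 without the shallower. Those of fam20cl and fam46c stayed within 2.82 to 3.14 and 4.54 to 4.56 when any 1 of the 4 libraries was left out. In a limma-voom fit of the recovered reads over 10743 genes, the difference of E2 from NP was between 2.91 ± 0.76 (fam20cl) and 5.38 ± 0.81 (fkbp11) on the log2 scale (SE). The adjusted p lay between 0.0893 and 0.152, so 0 of 7 passed, as 0% of all genes did, while 7 of 7 had an unadjusted p under 0.05, as did 1765 genes or 16.4% of all. The tanks held different concentrations, and the E2 values had chosen the genes, which fixes the order of E2 and NP in part, so these values say how far apart the 2 groups lay and not how the compounds compare in strength.

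The same fit gave a second reading of each comparison with control. For E2 the adjusted p ran from 0.0536 (rcn3, rtn1a and fam20cl) to 0.209 (mcfd2), and 0 of 7 passed, where 0.0186% of all 10743 genes did. An unadjusted p under 0.05 was found for 1478 genes or 13.8% of all, and for 7 of 7 of these, a share that follows from choosing them for their E2 levels and is no result about them. The fitted differences of the 7 from control ran from 3.66 ± 0.88 (mcfd2) to 10.25 ± 1.26 (rcn3) on the log2 scale (SE). For NP the adjusted p ran from 0.314 (fam20cl) to 0.994 (mcfd2), and 0 of 7 passed, as 0% of all genes did. In NP rcn3, fam20cl and rtn1a had an unadjusted p under 0.05, as did 714 genes or 6.65% of all. So did fam46c, but with 4 NP reads and 0 control reads it met the filter of 10 reads only through its 70 E2 reads. Its p in this fit is therefore no evidence of a rise in NP. The controls helped choose the genes, so the NP p-values of rcn3, fam20cl and rtn1a are no independent test either. The calls of E2 and NP named above are those of the authors' fit.

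**Figure D4:**
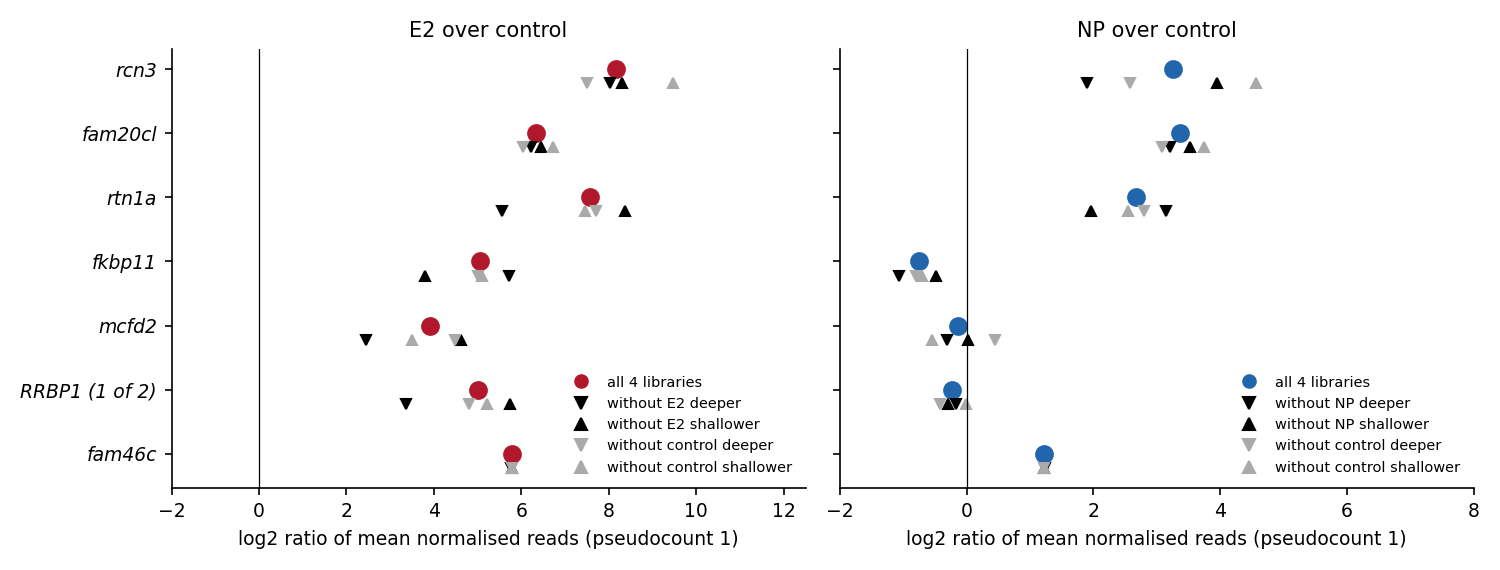
Log2 ratios of mean normalised reads, after adding 1, for E2 over control and NP over control: coloured circles use all 4 libraries and triangles leave out 1 library each. In E2 all points stay above 0, from 2.44 (mcfd2 without the deeper E2 library) to 9.48 (rcn3 without the shallower control). In NP the points of rcn3, fam20cl, rtn1a and fam46c stay above 0, and those of mcfd2 lie on both sides of it.

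Of the other tested members of the families of these 7 genes, 1 of 29 rose in E2 and 0 of 38 in NP, where 2.10% and 1.26% of all tested genes rose, so these counts do not set the families apart from other genes. The 7 genes were chosen for high E2 values, so their place above their relatives in E2 follows in part from that choice. Of the reticulocalbin family, which binds calcium in the ER, 2 other members were tested in each comparison and 0 passed. The highest in the authors' deposited table was calua, at 1.81 ± 1.19 (SE, log2; adjusted p = 0.437) in E2, with levels of 503 and 58.8 in E2 and 95.8 and 45.3 in control. Of the FAM20 family, 2 others were tested in E2 and 3 in NP, and 0 passed. Both FAM20C (1 of 2), at 1.01 ± 1.27 in E2 and -0.14 ± 1.02 in NP, and fam20a, at 0.64 ± 1.12 and -0.04 ± 0.89, had far smaller values in the authors' deposited tables (SE, log2) than fam20cl.

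Among 8 other tested reticulons and ER-shaping proteins 1 rose in E2, reep2, which encodes a receptor expression-enhancing protein that curves ER tubules, at 4.50 ± 1.47 (SE, log2; adjusted p = 0.0410) in the authors' deposited table. All its E2 reads lay in the deeper library (138 and 0 normalised reads in E2, 1.12 and 2.35 in control), so the rise rests on that library. The other 7 did not pass, and the median of the 8 was -0.17. In NP 0 of 8 passed, with a median of 0.60.

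One FK506-binding protein of the ER other than fkbp11 was tested, fkbp2, and it did not pass (0.65 ± 1.09 in E2 and -0.34 ± 0.80 in NP, SE, log2, authors' deposited tables). Of the FAM46 family 0 others were tested in E2 and 1 in NP, fam46ba, which did not pass (-3.04 ± 1.18, SE, log2, adjusted p = 0.207, authors' deposited table). Of rough ER proteins, 2 others were tested in E2 and 4 in NP, and 0 passed. The paralogue rrbp1b lay at -0.66 ± 1.18 in E2 and -1.43 ± 0.66 in NP (SE, log2, authors' deposited tables). Its levels of 205 and 21.4 in E2, against 157 and 225 in control, did not separate as those of RRBP1 (1 of 2) did. Reads shared between such similar genes may not be divided correctly, and how the authors' counting treated them is not given in the sources used here.

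Cargo and retrieval receptors, the class of mcfd2, had 14 other members tested in E2 with 0 passing and a median of 0.74, and 19 in NP with 0 passing and a median of -0.71. The partner of mcfd2, lman1, was the highest in E2, at 2.33 ± 1.11 (SE, log2; adjusted p = 0.213) in the authors' deposited table. Its levels were 291 and 69.5 in E2, 40.8 and 21.8 in control and 25.8 and 24.6 in NP, the same order of groups and of E2 libraries as mcfd2. In the authors' deposited table tmed10, a cargo receptor of the p24 family, stood at 1.36 ± 1.06 in E2 and -1.43 ± 0.70 in NP (SE, log2), and did not pass in either. Also lower in NP without passing were cnih1, at -2.12 ± 1.02 (adjusted p = 0.473), and tmed8, at -2.36 ± 1.18 (adjusted p = 0.532), in the authors' deposited table (SE, log2).

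Genes of the steps around these proteins did not pass in either comparison. The translocon, which passes new proteins through the ER membrane, with signal peptidase and the receptor of the signal recognition particle, had 17 genes tested in E2 with 0 passing. Their median log2 fold change was 1.22, where the median over all tested genes was -0.22. In NP 0 of 18 passed, with a median of -0.07, against -0.03 over all. The highest in E2 were the translocon subunits sec61a1, at 2.57 ± 1.17 (adjusted p = 0.177), and sec61g, at 2.47 ± 1.01 (adjusted p = 0.121), in the authors' deposited table (SE, log2). Levels of sec61g were 216 and 214 in E2, 43.4 and 25.3 in control and 52.4 and 19.8 in NP, so its E2 libraries matched and lay above the others. In NP the translocon genes with the smallest p were sec61a1l, at -1.75 ± 0.71 (adjusted p = 0.261), and ssr1, at 1.51 ± 0.77 (adjusted p = 0.539), in the authors' deposited table (SE, log2).

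The COPII coat, which forms the vesicles that leave the ER, had a median of 0.08 in E2 (0 of 11 passed) and -0.36 in NP (0 of 16 passed). Of the transcription factors that drive secretory genes, 0 of 5 passed in E2 or in NP, with medians of 1.65 and -0.32. The ER stress sensor atf6 was the highest in E2, at 3.70 ± 1.38 (SE, log2; adjusted p = 0.0859) in the authors' deposited table. Its level was 855 in the deeper E2 library and 10.7 in the shallower, below both controls (29.2 and 15.3), so the E2 libraries disagreed. Next was creb3l2, with 2.03 ± 1.17 (SE, log2; adjusted p = 0.348, authors' deposited table) and levels of 87.6 and 16.04 in E2 against 10.5 and 12.4 in control.

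**Figure D5:**
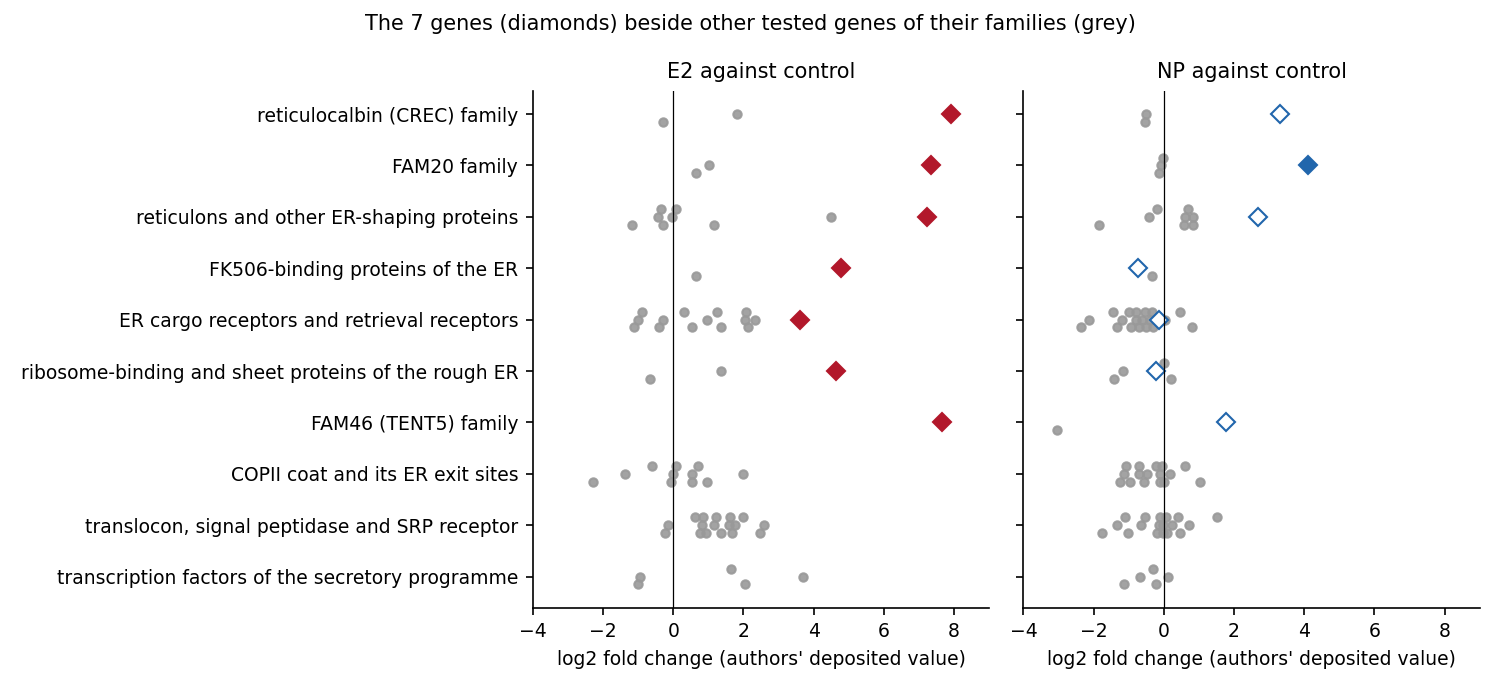
Log2 fold changes in the authors' deposited tables for the 7 genes (diamonds, filled where the adjusted p was under 0.05) and for other tested genes of their families or of neighbouring steps (grey), E2 at left and NP at right. In E2 each diamond lies right of every grey point in its own row, and the fam46c row has no grey point. This order follows in part from choosing the 7 genes for high E2 values. The grey point at 4.50 is reep2.

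The genes most like the 7 across the 6 libraries were found by the Pearson correlation of log2 levels (after adding 1) with the mean standardised profile of the 7, over 1943 genes whose mean was 20 or more. Among the 5 highest with an informative symbol were larp4b (r = 0.990), tjp1b (0.990), gskip (0.968) and eif2s2 (0.965). These r are descriptions over 6 libraries, in which the E2 pair carries most of the variation. The 7 genes themselves had r from 0.893 (fkbp11) to 0.993 (fam46c) with a profile they are part of.

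These 4 genes did not pass in E2. The authors' deposited table gave 2.71 ± 1.09 (SE, log2; adjusted p = 0.117) for larp4b, with levels of 82.2 and 42.8 in E2, 7.11 and 9.41 in control and 12.6 and 12.97 in NP. Both E2 libraries of larp4b lay above the others. For eif2s2, a subunit of translation initiation factor 2, the authors' deposited table gave 1.77 ± 0.98 (SE, log2; adjusted p = 0.313).

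In the RefSeq annotation GRCz12tu, which is another build than the authors' GRCz10 and was used for neighbours only, rcn3 overlaps nosip. Levels of nosip were 103 and 21.4 in E2, 4.49 and 5.30 in control and 7.29 and 5.46 in NP. It was above control in both E2 libraries, with 3.37 ± 1.18 (SE, log2; adjusted p = 0.0627) in the authors' deposited table. The span of fam20cl overlaps 10 protein-coding genes, rrbp1b among them, and that of rtn1a overlaps lrrc9, which had 0 reads. That of fam46c (tent5c) overlaps 1 gene, which is not protein-coding. Whether the counting used strand is not given in the sources used here, so reads of overlapping genes may not be told apart. The spans of fkbp11 and mcfd2 overlap 0 other genes, and RRBP1 (1 of 2) was not matched to that annotation.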

How the data were processed

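RNA sequencing of 6 liver libraries was deposited as 2 tables of the authors' comparisons, each with control. TopHat2, HTSeq and DESeq2, with the build GRCz10, are named in the submitters' processing notes. Per the file headers, each table holds a mean signal per gene (normalised reads over 4 libraries), and the authors' log2 fold change, its standard error, a Wald score, a p-value and an adjusted p. "Rose" and "fell" mean a deposited adjusted p under 0.05, given for 3241 genes in E2 and 6799 in NP.

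The tables hold no value per library. Each mean is a sum of whole reads times a fixed step per library, and solving both tables for 6 whole counts gave a unique answer for 18407 of 18593 genes (99.0%), checked on simulated data. These genes hold 44.9% and 37.3% of the summed means in the E2 and NP tables, so read totals over them are not depths. NP levels were put on the E2 table's scale by the geometric mean of the 2 control steps. Counts were fitted with limma-voom (limma 3.58.1, R 4.3.3, TMM, genes with at least 10 reads over the 6 libraries).

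Samples were grouped by the agent in the labels. The members and gene lists were chosen with earlier results of these data known. Genes named beside the 7 are, per list, those past the threshold or else the 2 with the smallest p, and the 5 most alike over libraries, of which 1 is not reported here. Some marker genes past the threshold are not named. Named outside that rule, after their values were seen, were genes that overlap a member (nosip, lrrc9) and the hp ID that did not pass. Defining markers at 0 (ptf1a, bhlha15, cd79a, cd79b, pax5) were named in the same way. Intervals are exact, at 95%, and, like the floor of 3 reads, cover counting error only. Alternatives were other adjustments, thresholds, scaling, filters and pseudocounts, and leaving out each library.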

Additional observations from a re-analysis of the deposited data

How the results depend on the processing

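The number of the 7 genes called in E2 against control was 7 as deposited. It was 6 with Benjamini-Hochberg adjustment over all genes with a p-value (mcfd2 was lost), 7 over genes with a mean of at least 10, 7 at a threshold of 0.1, 0 with limma-voom and TMM, 2 with the authors' size factors in limma-voom and 5 without its filter on low counts. Leaving out each library in turn gave 0 to 0, against 0 with all libraries in that fit. In NP against control the count was 1 as deposited, 0 with adjustment over all genes with a p-value, 1 over genes with a mean of at least 10 and 2 at a threshold of 0.1 (rcn3 was added). It was 0 with limma-voom, with the authors' size factors and without the filter, and 0 to 0 leaving out each library. In E2 against NP it was 0, also with the authors' size factors and 0 to 0 leaving out each library of these groups, and 4 without the filter. Leaving out either control from that fit of 3 groups gave 1, fam46c, with adjusted p = 0.0466 without the deeper and 0.0441 without the shallower. The cause of these changes was not tested. TMM put the median log2 difference of all genes in E2 at -0.36, and the authors' size factors at -0.23.

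Of 42 log2 fold changes recomputed for the 7 genes in E2, 33 moved by less than the authors' standard error of that gene, 9 moved further and 0 changed sign. In NP these numbers were 42, 40, 2 and 0, where a change of sign was counted for called values only. No paired analysis was possible because the replicate numbers are accession order and the tables hold no column per library. Shares of promoter motifs were not run, since no promoter sequence was used here. The shallower E2 library limits the precision, with 23161 reads over the recovered genes and 10 to 120 reads for each of the 7.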
